A study of Mus musculus with 10 samples.

Results

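The interferon-induced membrane protein (Ifitm) genes Ifitm1, Ifitm2, Ifitm3, Ifitm5 and Ifitm6 were followed in mouse incisor dental mesenchyme after loss of its sensory nerve. They were found by gene symbol among the 18193 genes with a probe set that names a single gene, and 5 of 5 were measured, each by 1 such probe set. Probe sets were to be chosen by their mean over the 10 arrays, so the level chose them, and with 1 per gene no second probe set could serve as a check. The family was taken up with earlier results of these data known. The tested samples were 5 denervated lower incisors of wild-type C57BL/6J mice at postnatal day 60, 2 weeks after the inferior alveolar nerve, which carries sensation from the lower teeth, was resected on that side. The 5 contralateral incisors, on the side where the nerve was not resected, came from mice that had undergone the same unilateral operation. No sham-operated or unoperated mice were included, and the effects of nerve loss and of surgery cannot be told apart. Sex was not determined per the labels.

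IFITM proteins are short membrane proteins with a CD225 domain that sit in the plasma membrane or in endosomes and hinder the fusion of enveloped viruses with cell membranes. IFITM1 is found mainly at the cell surface, and IFITM2 and IFITM3 mainly in endosomes and lysosomes. Type I and type II interferons induce these 3 through the JAK and STAT pathway, but many cells, stem and mesenchymal cells among them, also make them without interferon, and mouse Ifitm3 (fragilis) and Ifitm1 are known from primordial germ cells. Ifitm5, also called Bril, is a gene of bone-forming osteoblasts that interferon is not known to induce. Ifitm6 has been described in mouse myeloid cells.

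The 5 genes lie side by side on chromosome 7 of the GRCm38.p6 build, in the order Ifitm5 (140948958 to 140950243), Ifitm2 (140954837 to 140959686), Ifitm1 (140967429 to 140969827), Ifitm3 (141009590 to 141010744) and Ifitm6 (141015812 to 141016892). The promoter windows of the 3 members with high levels are shown because they differ in matches to the element through which interferon-activated factors bind. They are RefSeq windows of 250 bases before the start and the first 30 transcribed bases, with matches to GAAA, any 2 bases and GAAA, searched on both strands, in capitals. The coordinates are chr7:140967826-140968105 on the plus strand for Ifitm1, and on the minus strand chr7:140955932-140956211 for Ifitm2 and chr7:141010715-141010994 for Ifitm3. The Ifitm1 and Ifitm2 windows lie wholly inside the gene bounds given above, whereas the Ifitm3 window reaches past its gene. Sequence upstream of the outer bounds of Ifitm1 and Ifitm2 was not searched, so a difference between the full promoters is not shown.
Ifitm1: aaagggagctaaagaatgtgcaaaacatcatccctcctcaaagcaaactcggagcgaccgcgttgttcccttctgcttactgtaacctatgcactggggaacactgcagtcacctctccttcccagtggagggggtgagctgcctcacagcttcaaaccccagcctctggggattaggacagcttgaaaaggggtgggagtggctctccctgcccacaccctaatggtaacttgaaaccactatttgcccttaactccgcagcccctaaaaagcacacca
Ifitm2: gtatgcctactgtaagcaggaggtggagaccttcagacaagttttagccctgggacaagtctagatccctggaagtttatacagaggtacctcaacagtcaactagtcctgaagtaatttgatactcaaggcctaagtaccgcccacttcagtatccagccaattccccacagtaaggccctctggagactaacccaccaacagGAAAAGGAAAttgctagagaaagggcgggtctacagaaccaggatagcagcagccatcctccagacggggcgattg
Ifitm3: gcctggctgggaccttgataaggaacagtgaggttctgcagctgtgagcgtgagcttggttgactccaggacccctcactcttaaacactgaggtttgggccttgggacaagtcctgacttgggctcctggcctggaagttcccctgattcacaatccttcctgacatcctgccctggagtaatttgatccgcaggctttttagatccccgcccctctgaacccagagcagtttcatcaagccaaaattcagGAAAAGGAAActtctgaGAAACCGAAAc
In the windows of 300 bases that the table gives, Ifitm3 held 2 matches, at transcribed bases 3 to 12 and 20 to 29, and Ifitm2 held 1, from 46 to 37 bases before the start. The windows of Ifitm1, Ifitm5 and Ifitm6 held 0. Of 32851 mouse promoter windows of this length, 3.44% held the motif and 0.225% held it at least 2 times. Among genes with a window, the motif was present for 13 of 28 in a list of type I interferon response genes and 9 of 15 in a list of interferon gamma response genes, against 3.99% of all 27025 gene symbols. The STAT motif TTCNNNGAA, found in 8.3% of windows, occurred in Ifitm3 at transcribed bases 14 to 22, overlapping the second capitalised match, and in Ifitm6 from 10 to 2 bases before the start. The longest run shared by the Ifitm2 and Ifitm3 windows was caggaaaaggaaa, 13 bases that include the first match. It occurred in 4 of the 32851 windows, those of Ifitm2, Ifitm3, Igsf10 and Rpl4. Because the run was picked from the Ifitm2 and Ifitm3 windows, this count is no independent measure of its rarity.

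The arrays were oligonucleotide arrays of total RNA, and their values are log2 intensities from -0.16 to 13.2, with array medians between 1.48 and 1.54. No detection calls were used, and 40.7% of genes had a mean below 2, so that for such genes signal and background could not be separated. The labelled tissue was checked against markers. The odontoblast list had 7 of 8 measured genes with a mean of at least 4, and the enamel epithelium list 10 of 10, so epithelial transcripts were present as well. In denervated array 3 the epithelial list was much lower, with a mean level -2.41 from its pair and the enamel gene Enam, named after its values were seen, at -8.77. Denervated arrays 2 and 3 stood apart in several cell type lists, and member differences are also given below with arrays of these numbers left out. Whether tissue make-up affects the Ifitm values was not tested. Arrays of equal number are taken as the 2 incisors of 1 mouse.

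In the denervated incisors the 3 members with high levels, Ifitm1, Ifitm2 and Ifitm3, had higher means than in the contralateral incisors, by 0.62, 0.28 and 0.38 on the log2 scale. Ifitm1 had the largest difference, and it is the member whose groups did not overlap. Ifitm1 and Ifitm2 were higher in 5 of 5 mice and Ifitm3 in 4 of 5. Ifitm5 and Ifitm6 lay at the low end of the scale, at 2.38 or below on every array. No member passed the test over all genes, limma with Benjamini-Hochberg adjustment at 0.05, which called 0% of the 18193 genes, so all values are given without a call. That fit's smallest adjusted p was 0.790, or 0.234 with the mouse as a block.

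Ifitm1, the member at the cell surface, had log2 values of 9.80, 10.10, 10.16, 9.58 and 9.58 in denervated incisors 1 to 5, against 9.37, 9.15, 9.35, 9.28 and 8.98 in contralateral incisors 1 to 5. The lowest denervated value lay above the highest contralateral one, and denervated incisors 2 and 3 were the highest. Groups did not overlap, with denervated higher, for 0.528% of all genes, or 0.72% of the 7919 genes with a mean of at least 4. The means were 9.84 ± 0.28 in denervated and 9.23 ± 0.16 in contralateral incisors (SD, n = 5 each), and the log2 difference was 0.62 ± 0.13 (SE), or 1.53-fold (95% confidence interval 1.25 to 1.87). In limma's test the unadjusted p was 0.000655, at rank 9 of 18193 genes, and the adjusted p was 0.790. With the mouse as a block in limma's test, Ifitm1 stood at rank 29 with an adjusted p of 0.259. Within mice 1 to 5 the differences were 0.44, 0.94, 0.81, 0.29 and 0.60, so the gene was higher on the denervated side in each. That pattern, higher in 5 of 5 mice, was met by 6.58% of all genes and by 9.18% of those with a mean of at least 4. Without denervated arrays 2 and 3 the difference was 0.43, and without both arrays of mice 2 and 3 it was 0.44.

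Ifitm2, an endosomal member, had log2 values of 9.76, 10.11, 10.05, 9.82 and 9.59 in denervated incisors 1 to 5, against 9.71, 9.50, 9.53, 9.76 and 9.42 in the contralateral ones. The groups overlapped, since denervated incisors 1 and 5 lay below the highest contralateral value. The means were 9.87 ± 0.21 and 9.58 ± 0.14 (SD, n = 5 each), a log2 difference of 0.28 ± 0.11 (SE) with an unadjusted p of 0.0272 and an adjusted p of 0.790 in limma's test. Within the mice the differences were 0.05, 0.61, 0.53, 0.06 and 0.17, so most of the difference came from mice 2 and 3. Without denervated arrays 2 and 3 it was 0.14, and without both arrays of these mice 0.09.

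Ifitm3, the member best known for restricting influenza virus, had log2 values of 9.83, 10.14, 10.60, 9.83 and 9.74 in denervated incisors 1 to 5, against 9.88, 9.56, 9.78, 9.72 and 9.30 in the contralateral ones. Denervated incisor 3 was the highest of all 10, contralateral incisor 5 the lowest, and the groups overlapped. The means were 10.03 ± 0.35 and 9.65 ± 0.23 (SD, n = 5 each), a log2 difference of 0.38 ± 0.17 (SE) with an unadjusted p of 0.0438 and an adjusted p of 0.790 in limma's test. The within-mouse differences were -0.05, 0.58, 0.82, 0.11 and 0.45, highest in mouse 3. Without denervated array 3 the difference was 0.24, and without denervated arrays 2 and 3 it was 0.15. Unadjusted p values under 0.05 with a higher denervated mean, as these 3 members had, were found for 4.1% of all genes and 5.1% of genes with a mean of at least 4.

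Ifitm5, the osteoblast member, had log2 values of 1.94, 1.94, 2.16, 2.04 and 2.22 in denervated incisors 1 to 5, against 2.38, 1.76, 1.71, 1.88 and 2.13 in the contralateral ones. The groups overlapped, and contralateral incisor 1 held the highest value. The log2 difference was 0.09 (95% confidence interval -0.19 to 0.37), higher in 4 of 5 mice, with an adjusted p of 0.897 in limma's test. It was -0.062 without both arrays of mice 2 and 3. The list of osteoblast and osteocyte genes had 7 of 9 measured members with a mean of at least 4, a median difference of -0.01, 4 members above 0 and 0 past the threshold. In that list Dlx5, a homeobox factor of bone and tooth, had 7.33 ± 0.13 in denervated and 7.15 ± 0.15 in contralateral incisors, and the collagen gene Col1a1 had 12.98 ± 0.15 and 13.07 ± 0.05 (SD, n = 5 each). Phex had 11.32 ± 0.40 in denervated and 11.60 ± 0.12 in contralateral incisors (SD, n = 5 each) and was higher in 0 of 5 mice. Its log2 difference was -0.28 ± 0.17 (SE), and that of its other probe set was -0.73. The Ifitm5 probe set was thus near the low end of its scale in samples where these genes were high, and genes such as Col1a1 are made by odontoblasts too.

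Ifitm6, the myeloid member, had log2 values of 1.18, 1.59, 1.98, 1.27 and 1.12 in denervated incisors 1 to 5, against 1.12, 1.13, 1.01, 1.08 and 1.36 in the contralateral ones. Denervated incisors 2 and 3 were the highest, and the other 8 arrays lay between 1.01 and 1.36. The log2 difference was 0.29 ± 0.15 (SE), higher in 4 of 5 mice, with an adjusted p of 0.791 in limma's test, and it was 0.15 without denervated array 3 and 0.051 without denervated arrays 2 and 3. The neutrophil list, whose 12 measured members include 9 with a mean below 2, was also highest in denervated arrays 2 and 3. Its mean level in mice 2 and 3 exceeded the contralateral one by 0.65 and 1.42, and it differed by -0.49, -0.17 and -0.09 in mice 1, 4 and 5. Its one gene with a mean of at least 4, the calprotectin gene S100a8, had values of 3.01, 5.50, 6.89, 2.66 and 4.52 in denervated incisors 1 to 5, against 4.85, 3.64, 3.25, 3.49 and 4.63 in the contralateral ones. The part of such cells in the Ifitm6 values was not tested.

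**Figure D1:**
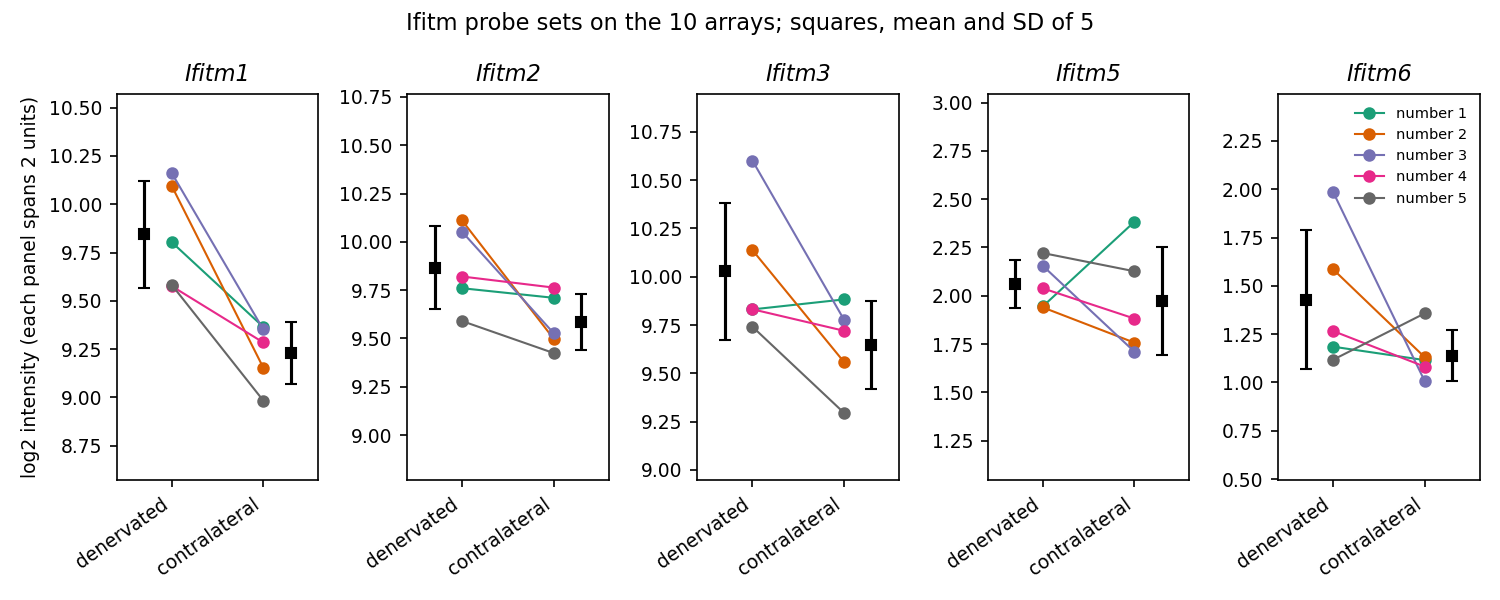
Log2 intensity (y axis, 2 units in each panel) of the 5 Ifitm genes in the denervated and contralateral incisors. Circles are arrays, lines join arrays of equal number, and black squares with bars are the mean and SD of 5 arrays; for Ifitm1 the lowest denervated value (9.58) is above the highest contralateral one (9.37), and for the other genes the groups overlap.

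The members varied together to different degrees. Over the 10 arrays Pearson's r was 0.89 between Ifitm1 and Ifitm2, 0.89 between Ifitm1 and Ifitm3, and 0.86 between Ifitm2 and Ifitm3. With the group means removed these were 0.83, 0.91 and 0.78. Ifitm6 correlated with the 3 between 0.69 and 0.73, and Ifitm5 between 0.14 and 0.19. These are descriptions over 10 arrays of 5 mice, which share the same RNA samples, and probes that bind transcripts of several family members could add to them, which was not tested.

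For each of the 3, genes were ranked by their Pearson correlation with it among 7778 genes with a mean of at least 4, clone names left out. The other high members were among these 7778. Of these genes 45 correlated above 0.9 with Ifitm1, 133 with Ifitm2 and 60 with Ifitm3. Correlations among the 3 members themselves, 0.86 to 0.89, lay below 0.9, so correlations this close were also found outside the family. The counts above 0.9 are the top end of 7778 genes. Whether the members vary together more closely than other genes was not tested. Closest to Ifitm1 were the growth hormone receptor gene Ghr (0.97), Dcaf4 (0.97) and Rxylt1 (0.95). Closest to Ifitm2 were the imprinted gene Ndn (0.97), Tmem98 (0.97) and the lactate dehydrogenase gene Ldhb (0.97). Closest to Ifitm3 were Rtp4 (0.97), the mitochondrial import gene Timm10b (0.96) and Csad (0.96). Rtp4 is an interferon-induced gene, and of the genes named here it alone stood in an interferon list. Timm10b and Csad, also close to Ifitm3, stood in none, nor did the genes named for Ifitm1 and Ifitm2. Spearman's rho was 0.81 for Ifitm3 with Rtp4, 0.95 for Ifitm1 with Ghr and 0.96 for Ifitm2 with Ndn. Rtp4 had 4.82, 5.35, 6.17, 4.84 and 5.00 in denervated incisors 1 to 5, against 4.95, 4.60, 4.97, 4.71 and 4.34 in the contralateral ones. As for Ifitm3, denervated incisor 3 was the highest and contralateral incisor 5 the lowest. The other probe set of Rtp4 had a difference of -0.09, against 0.53 for the one used.

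**Figure D2:**
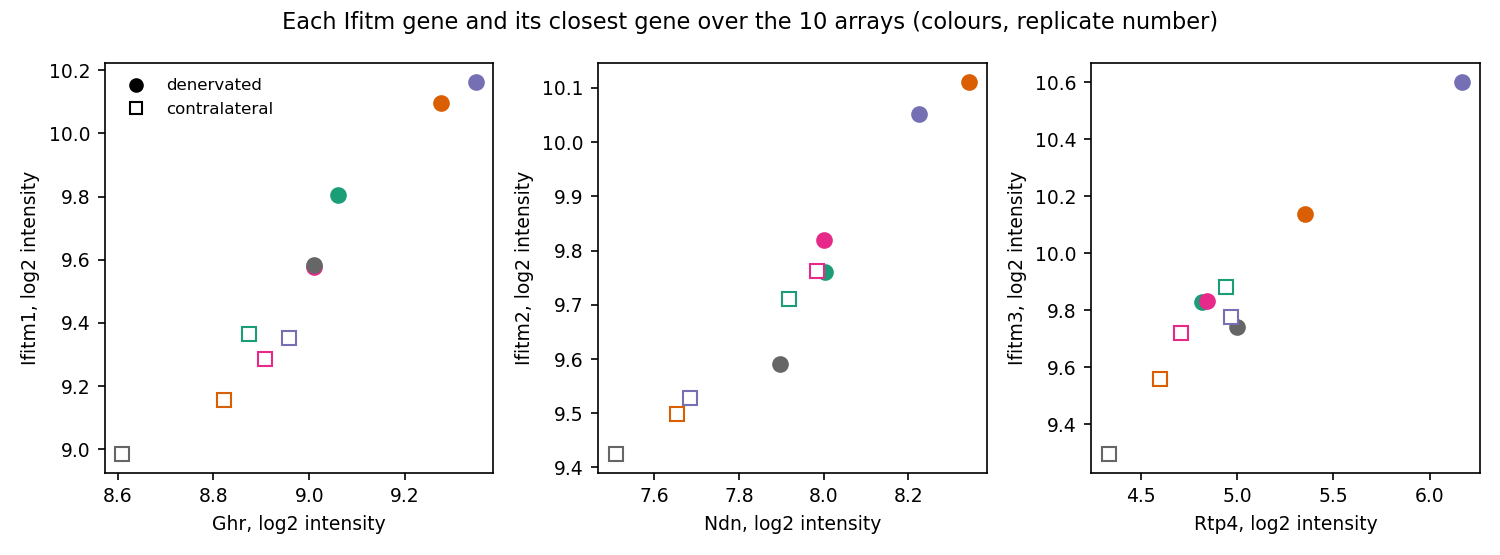
Log2 intensities of Ifitm1, Ifitm2 and Ifitm3 (y axes) against Ghr, Ndn and Rtp4 (x axes), the gene most like each. Filled circles are denervated and open squares contralateral arrays, coloured by number; denervated arrays 2 and 3 hold the top 2 places in each panel, and contralateral array 5 the lowest.

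Interferon response genes beyond the family were described from lists. Of 37 measured type I interferon response genes 29 had a higher denervated mean and 8 a lower one (78.4% higher, against 55.8% of all genes), and 0 passed the test. The median log2 difference was 0.18, against 0.02 over all genes, and 0.007 without denervated arrays 2 and 3. Only 9 of the 37 had a mean of at least 4, and 16 had a mean below 2. Ifi27l2a, an interferon-induced protein gene, had 4.98, 5.77, 6.46, 5.09 and 4.92 in denervated incisors 1 to 5, against 4.78, 4.64, 5.33, 5.06 and 4.25 in the contralateral ones, a difference of 0.63 ± 0.30 (SE). It was higher in 5 of 5 mice, as were 9.18% of genes with a mean of at least 4, and denervated incisor 3 was the highest. Oasl2, of the oligoadenylate synthetase family, differed by 0.53 ± 0.25, and Rtp4 by 0.53 ± 0.24, each higher in 4 of 5 mice. The adjusted p of all 3 was 0.790. With the mouse as a block in limma's test, the SEs of Ifi27l2a, Oasl2 and Rtp4 were 0.17, 0.16 and 0.18. Their adjusted p values were then 0.399, 0.428 and 0.443.

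**Figure D3:**
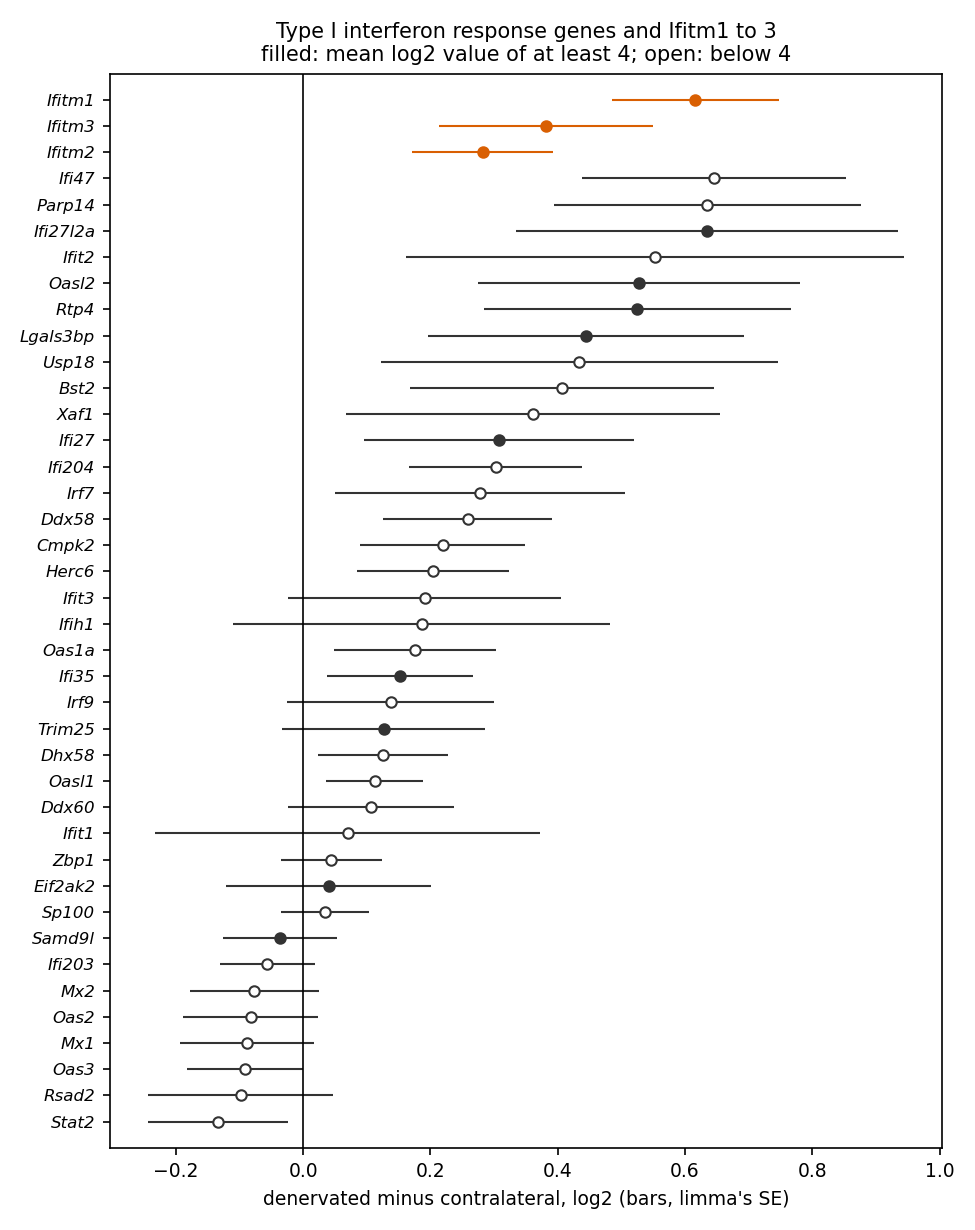
Difference between denervated and contralateral incisors (log2, x axis) for 37 type I interferon response genes, with Ifitm1, Ifitm2 and Ifitm3 in orange at the top; bars are limma's standard errors, n = 5 arrays per group. Filled points have a mean of at least 4; 29 of the 37 lie to the right of 0 and 8 to the left.

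Of 19 measured interferon gamma response genes 15 had a higher mean and 4 a lower one (78.9% higher, against 55.8% of all genes). The median was 0.29, 0.03 without denervated arrays 2 and 3, and 0 were past the threshold. The transcription factor gene Irf1 had 4.56 ± 0.44 in denervated and 4.14 ± 0.16 in contralateral incisors (SD, n = 5 each). Irf1 was higher in 5 of 5 mice, as were 9.18% of genes with a mean of at least 4. The GTPase genes Iigp1 and Gbp2 differed by 0.38 ± 0.18 and 0.41 ± 0.28 (SE), each higher in 4 of 5 mice. With the mouse as a block these SEs were 0.11 and 0.13. Among 19 receptors, kinases and factors of the pathway 13 were above and 6 below 0 (68.4% above, against 55.8% of all genes). Their median was 0.06, with 0 past the threshold. Ifngr1, the ligand-binding chain of the interferon gamma receptor, had 6.39 ± 0.35 in denervated and 5.94 ± 0.20 in contralateral incisors (SD, n = 5 each), a difference of 0.45 ± 0.16 (SE) with an adjusted p of 0.790. Interferon ligands were at the low end of the scale. All 5 measured ligand genes had a mean below 2, with a median difference of -0.004 and 2 above 0. Sensors of foreign nucleic acid, which lead to interferon production, had 9 of 13 genes above 0 (69.2%, against 55.8% of all genes). Their median was 0.08, with 0 past the threshold.

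Over the 15 interferon response genes of both lists with a mean of at least 4, the median Pearson correlation over the 10 arrays was 0.81 with Ifitm3, 0.75 with Ifitm1 and 0.74 with Ifitm2. Of these genes 8 correlated above 0.8 with Ifitm3, 3 with Ifitm1 and 6 with Ifitm2. The lowest correlation was 0.27 with Ifitm3, 0.08 with Ifitm1 and 0.03 with Ifitm2. No matching median was taken over all genes of that level, so a link particular to interferon genes was not tested. These figures describe 10 arrays of 5 mice, and whether they differ between the members was not tested.

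Genes next to the cluster and other genes of the domain were compared for position and kinship. Of 12 measured genes around the cluster 8 were above and 4 below 0 (66.7% above, against 55.8% of all genes), with a median of 0.02. Of the 12, 0 were higher in 5 of 5 mice, against 6.58% of all genes. On the Ifitm5 side Pgghg, a glycoside hydrolase gene, differed by 0.07 ± 0.13 and Nlrp6, an inflammasome gene, by -0.16 ± 0.10 (SE), the second at a level below 1. On the Ifitm6 side B4galnt4 differed by 0.21 ± 0.18, the desmosome gene Pkp3 by -0.21 ± 0.29 and Sigirr, a negative regulator of interleukin receptors, by 0.04 ± 0.12. Farther along, the lipid synthesis gene Ptdss2 and the ribonuclease inhibitor gene Rnh1 differed by 0.04 ± 0.08 and 0.03 ± 0.07. Of 7 other measured genes with a CD225 domain none had a mean of at least 4. Ifitm7 differed by -0.08 ± 0.12, Ifitm10 by 0.003 ± 0.12 and Prrt1 by -0.004 ± 0.12 (SE). Syndig1, of synapses, and Trarg1, of glucose transport, differed by 0.30 ± 0.11 and 0.17 ± 0.09 (SE), with adjusted p of 0.790 and 0.793 in limma's test. Each was higher in 5 of 5 mice, as were 6.58% of all genes, at mean levels below 2.

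Partners and modifying enzymes of IFITM proteins were all measured, 13 of 13 with a mean of at least 4. Of these 7 were above and 6 below 0, with a median of 0.03 and 0 past the threshold. Fyn, a kinase that phosphorylates IFITM3, had 7.03 ± 0.31 in denervated and 6.67 ± 0.34 in contralateral incisors (SD, n = 5 each). Fyn was higher in 5 of 5 mice, as were 9.18% of genes with a mean of at least 4. Ptgfrn, a tetraspanin partner, differed by 0.15 ± 0.07, and the sterol transport gene Osbp by -0.11 ± 0.08 (SE).

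Levels of cell type markers differed most in mice 2 and 3 for several lists. In these bulk samples more cells of a type and more RNA per cell cannot be told apart. Of 12 macrophage markers 11 had a higher denervated mean and 9 were higher in 5 of 5 mice. Over all genes these shares were 55.8% and 6.58%, the second 9.18% of genes with a mean of at least 4. The macrophage median difference was 0.49, 0.25 without denervated arrays 2 and 3, and 0 markers were past the threshold. Their mean log2 level ran from 5.94 to 6.68 in denervated and from 5.68 to 5.89 in contralateral incisors, and 0 of the 12 had a mean below 2. Within mice 1 to 5 this level differed by 0.19, 0.72, 0.87, 0.17 and 0.30, highest in mice 2 and 3 and lowest in mouse 4, as for Ifitm1 apart from the order of the first 2. Mrc1, the mannose receptor gene, had 7.37, 8.45, 7.90, 7.49 and 7.21 in denervated incisors 1 to 5, against 6.95, 7.40, 6.80, 7.20 and 6.62 in the contralateral ones. Of its 5 within-mouse differences, those of mice 2 and 3 were the largest.

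Monocyte markers had 8 of 10 above 0 with a median of 0.31, 0.08 without denervated arrays 2 and 3, and a mean level from 4.51 to 5.27 in denervated and from 4.30 to 4.52 in contralateral incisors, with 3 of 10 markers at a mean below 2. Pericyte and smooth muscle markers had 11 of 12 above 0 with a median of 0.34, 0.12 without those arrays, and a mean level from 5.46 to 6.42 in denervated and from 5.36 to 5.51 in contralateral incisors, with 1 of 12 below 2. Endothelial markers had 12 of 12 above 0 with a median of 0.18, -0.05 without those arrays, and a mean level from 4.53 to 5.40 in denervated and from 4.63 to 4.97 in contralateral incisors, with 0 of 12 below 2. For these counts above 0, the share over all genes was 55.8%. No marker of these lists passed the test. The endothelial level was higher in mice 2 and 3 by 0.65 and 0.63 and lower in mice 1, 4 and 5, by -0.10, -0.11 and -0.13. In mice 1, 4 and 5 the differences were 0.44, 0.29 and 0.60 for Ifitm1, 0.05, 0.06 and 0.17 for Ifitm2, and -0.05, 0.11 and 0.45 for Ifitm3.

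Other lists differed in the same arrays. Schwann cell markers had 7 of 8 above 0 with a median of 0.52, -0.05 without denervated arrays 2 and 3, and their mean level differed by 2.07 in mouse 2 and 0.78 in mouse 3. It ran from 2.07 to 4.38 in denervated and from 2.08 to 2.51 in contralateral incisors, with 4 of 8 markers at a mean below 2. Odontoblast markers had 0 of 8 above 0 with a median of -0.32, -0.18 without those arrays, and a difference of -0.83 in mouse 2 and -0.01 in mouse 3. Their mean level ran from 8.28 to 9.07 in denervated and from 9.01 to 9.11 in contralateral incisors. Dental epithelium markers had 0 of 10 above 0 with a median of -0.41, -0.03 without those arrays, and differences of -0.44 in mouse 2 and -2.41 in mouse 3, the mouse with the largest Ifitm3 and Ifitm6 differences. Their mean level ran from 7.01 to 9.54 in denervated and from 9.42 to 9.71 in contralateral incisors. Over all genes 55.8% were above 0. No marker of these 3 lists passed the test. Markers of T and NK cells lay at the low end of the scale, with 11 of 11 at a mean below 2, as did 6 of 7 B cell markers. The part of these cell types in the Ifitm values was not tested.

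**Figure D4:**
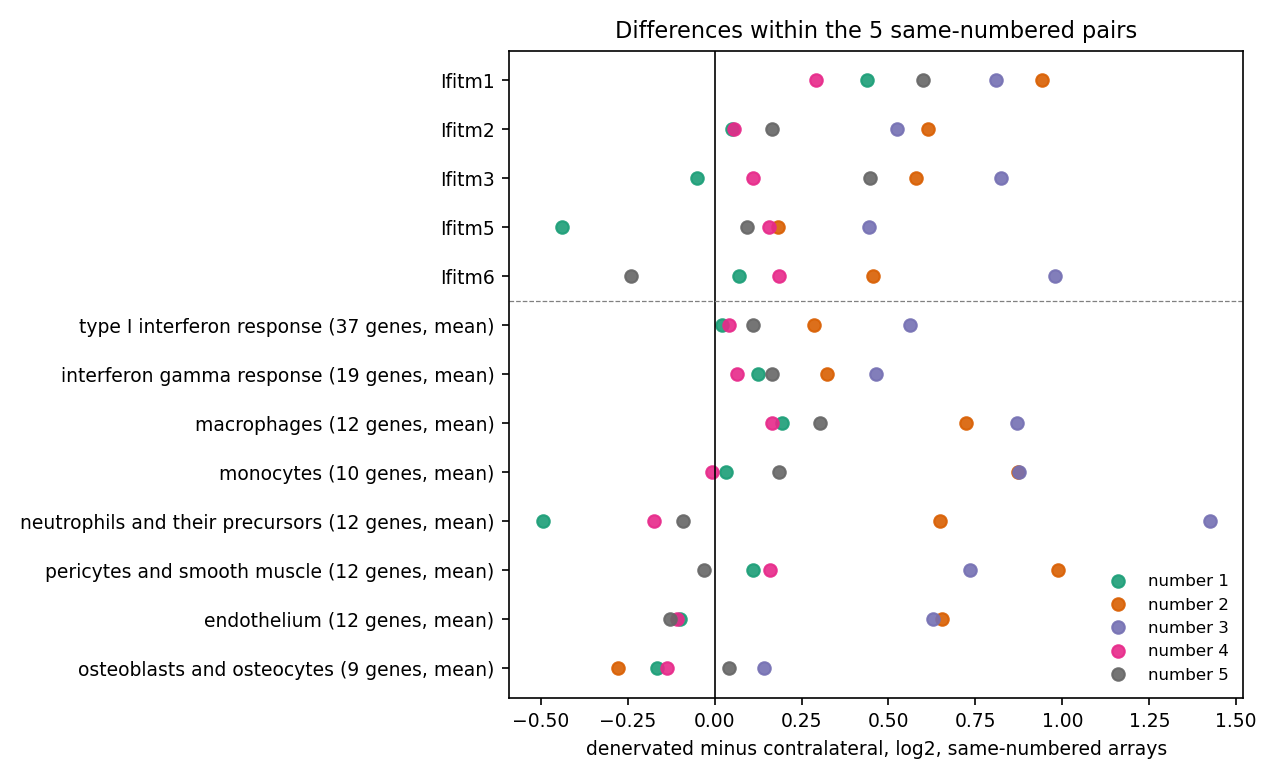
Denervated minus contralateral log2 difference (x axis) within each same-numbered pair, for the 5 Ifitm genes above the dashed line and for the mean level of 8 gene lists below it; each point is 1 pair, coloured by number. Pairs 2 and 3 lie farthest to the right for Ifitm1, Ifitm2, Ifitm3 and Ifitm6 and for all lists but that of osteoblasts and osteocytes; Ifitm1 is above 0 in each pair.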

How the data were processed

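Dental mesenchyme RNA of 5 denervated and 5 contralateral incisors was measured on 1 array each. The authors deposited 1 log2 intensity for each probe set and array. Per the submitters' processing notes RMA was used, a method of background correction, normalization across arrays and summary of probes, with no version given; further steps are not given in the sources used here. The log2 scale was read from the values. The table holds 45101 probe sets, used as deposited; 64 control probe sets were left out. In the supplied platform annotation 34945 name 1 gene, and the one with the highest mean was kept for each gene, which gave 18193 genes. Of the 34945, 34741 matched the RefSeq gene table by Entrez identifier and 0 symbols changed. Precision is limited by the number of arrays, with a median standard error of 0.10 per log2 difference.

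Groups were compared with limma 3.58.1 (lmFit and eBayes, R 4.3.3), with Benjamini-Hochberg adjustment over all 18193 genes and a threshold of 0.05. Differences are denervated minus contralateral. The fit has no term for the mouse, and standard errors, intervals and p values are from it unless the block is named. With the block the SE was smaller for Gbp2 (0.13 against 0.28) and Fyn (0.09 against 0.18). It was larger for Ifngr1 (0.17 against 0.16). Deviations from the group means correlated at 0.18 to 0.57 for the 5 pairs of equal number and at -0.41 to 0.22 for the 20 others, and the design text gives both incisors of 5 mice, so equal numbers were taken to mark a mouse; a second fit used the mouse as a block. Whether the arrays of a group were processed together is not given in the labels. The fits were run on simulated arrays without a mouse effect, with planted changes larger than any Ifitm difference. Detection of differences of the Ifitm size and the choice of a block were thus not tested. Members, lists and tests were chosen with earlier results of these data known. Named genes are the members, at most 3 genes per list with the smallest p among those with a mean of at least 4, the 3 most like each high member, and genes of the CD225 and neighbour lists. Lists are described by counts and medians without a test. Listed genes without a value were not analysed here. RefSeq promoter windows (GRCm38.p6) matched 5 of 5 members; protein sequences were not used here. Alternatives were the block, the mean of probe sets, a filter on low means, median centring, quantile normalization, an intensity trend, and arrays left out.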

Additional observations from a re-analysis of the deposited data

Results flagged for a closer look

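In 47 named genes, each group of 5 arrays was searched for an array far from the rest (Dixon's ratio above 0.71). Of 94 groups 6 held one, where chance flags about 1 in 20, and 0 of the 10 groups of Ifitm values did; their largest ratio was 0.647. In the denervated incisors array 3 was high for Oasl2, at 5.24 with the next value at 4.24, and for the macrophage gene Adgre1, at 6.27 with the next at 5.63. Denervated array 2 was high for B4galnt4, at 4.51 with the next at 3.76. Denervated array 5 was low for Ptgfrn, at 6.95 with the next at 7.12. Denervated array 3 was low for Enam, at 0.82 with the next at 8.81. Contralateral array 4 was low for Col1a1, at 12.98 with the next at 13.08.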

How the results depend on the processing

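Of 88 alternative values of the 5 member differences, 87 kept the direction and the side of the threshold. The exception was Ifitm5, at -0.062 without both arrays of mice 2 and 3; the cause was not tested. The block, the mean of probe sets, the filter on low means and the intensity trend cannot change a member's difference, so its direction was fixed there. As 0 genes passed in any setting, keeping the side of the threshold is no measure of robustness. The count of genes past the threshold was 0 in all 18 alternatives, with the smallest adjusted p between 0.234 and 1.00. With the replicate block (the mouse as a term) no call changed: 0 genes passed, and the adjusted p was 0.259 for Ifitm1, 0.457 for Ifitm2 and 0.442 for Ifitm3. Leaving out 1 array moved the difference between 0.54 and 0.68 for Ifitm1, 0.22 and 0.35 for Ifitm2, 0.24 and 0.45 for Ifitm3, 0.02 and 0.19 for Ifitm5, and 0.15 and 0.37 for Ifitm6, and the count of genes stayed at 0. The Ifitm6 difference was 0.051 without denervated arrays 2 and 3, and 0.005 without both arrays of mice 2 and 3. With quantile normalization the differences of Ifitm1, Ifitm2 and Ifitm3 were 0.60, 0.25 and 0.35. Ifitm5 and Ifitm6 had means below 4, so the filter on low means gave no value for them. Other probe sets of the members were not run, because each has 1. Low signal limits Ifitm5, Ifitm6, the interferon ligands and 16 of 37 type I interferon response genes.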
